A study of Mus musculus with 24 samples.

Results

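The genes described here encode the collagens, the laminin chains and the main partners of basement membranes, measured by RNA-Seq in cells of E12.5 mouse livers. They were chosen by name, as every gene called *Col* or *Lama*, *Lamb* or *Lamc* with its chain numbers, together with *Fn1*, *Nid1*, *Nid2*, *Hspg2*, *Agrn*, *Emilin1*, *Emilin2*, *Fbln1*, *Fbln5*, *Sparc* and *Vtn*, provided that 3 or more of the 24 libraries reached 1 TPM. TPM are reads per transcript length, scaled by the authors so that every library sums to the same total. Of the 25361 genes in the table, 66 have such a name, and 55 of these reached the threshold. The 11 that did not were *Col4a3*, *Col4a4*, *Col5a3*, *Col6a4*, *Col6a5*, *Col10a1*, *Col19a1*, *Col22a1*, *Col28a1*, *Lama3* and *Lamb3*. The nearest of them was *Lama3*, at 1 TPM or more in 2 LSEC libraries, and *Col7a1* passed with 3. Of the 55, 21 passed through LSEC libraries only, so that a higher level in LSECs was a condition of their entry.

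Livers of single embryos were separated with CD146 beads into liver sinusoidal endothelial cells (LSECs) and the remaining non-EC cells, after a digestion that contained the transcription inhibitors actinomycin D and triptolide and the translation inhibitor anisomycin. Controls were Cre-negative littermates that also carry floxed alleles. *Chd4-ECko* embryos had both *Chd4* alleles and 1 *Brg1* allele floxed, *Brg1-ECko* embryos had both *Brg1* alleles and 1 *Chd4* allele floxed, and *Brg1/Chd4-ECdko* embryos had both genes floxed on both alleles, each with the *VE-cadherin-Cre* transgene, which is active in endothelial cells and also in some blood cells. All were on a mixed background. Each fraction and genotype had 3 libraries, and values below are listed in the order of replicates 1, 2 and 3. Of the chromatin remodelers deleted, CHD4 is the ATPase of the NuRD complex and BRG1, encoded by *Smarca4*, an ATPase of the SWI/SNF complex. The question for these genes is whether the transcripts that build the vessel matrix differ between the fractions and between the genotypes.

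A basement membrane is a thin sheet of matrix under endothelial and epithelial cells, built from a collagen IV network and a laminin network that nidogens and the heparan sulfate proteoglycans perlecan and agrin hold together. Laminins are trimers of an α, a β and a γ chain. Sinusoids of the adult liver are known for a sparse matrix in place of a continuous basement membrane. For embryonic livers the study describes a basement membrane around the sinusoids that is rich in laminin. Stellate cells, which lie against the sinusoids, are known as the main source of fibrillar collagens in this organ. Plasmin, the protease that links these genes to the study's question on fragile vessels, cleaves laminin and fibronectin.

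The LSEC libraries had all 10 endothelial markers above the non-EC libraries, and their summed TPM in controls was 1711 against 42.3, a ratio of 40.4. They also held transcripts that mark other cells. Of 12 stellate and mesenchymal markers (*Pdgfra*, *Lhx2*, *Hand2*, *Dcn* and others), 11 were higher in control LSECs, at a sum of 755 against 61.0 TPM (ratio 12.4), and all 8 mesothelial markers were higher (272 against 16.3 TPM, ratio 16.7). The stellate marker that was lower, *Reln*, had 25.9 TPM in control LSECs and 44.7 TPM in control non-EC cells. It made up most of the non-EC sum, so that the ratio of 12.4 understates the difference of the other 11. The 12 stellate markers were all above 1 TPM on average in the LSEC libraries, where their sum ran from 523 to 984 TPM. Hepatoblast markers summed to 4658 TPM in control LSECs and 17183 TPM in control non-EC cells. LSEC replicate 1 of *Brg1-ECko* stood apart with a hepatoblast sum of 26870 TPM, against at most 7645 in the other LSEC libraries, and the lowest endothelial sum, 914 TPM. Mitochondrial genes made up 13.9% to 31.5% of all TPM in LSECs and 2.33% to 7.69% in non-EC cells. The targeted genes did not separate the genotypes in these values, which are per whole gene and do not tell transcripts with and without the floxed exons apart. *Chd4* was at 246 to 285 TPM in control LSECs, 168 to 252 in *Chd4-ECko* and 242 to 256 in *Brg1/Chd4-ECdko* LSECs, and *Smarca4* was at 134 to 161, 111 to 157 and 117 to 151 TPM in control, *Brg1-ECko* and *Brg1/Chd4-ECdko* LSECs.

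Partner chains of collagen IV are encoded head to head, and their start regions are shown because both genes are among the most abundant members and had a ratio of 1.57 to 1.82 over the 12 LSEC libraries. In GRCm39, *Col4a1* (ENSMUSG00000031502) lies on the minus strand of chromosome 8 from 11248423 to 11362826 and *Col4a2* (ENSMUSG00000031503) on the plus strand from 11362471 to 11499287, so that the annotated genes overlap by 356 bases. The windows of 300 bases that RefSeq gives for GRCm38.p6, 250 before and 50 after each start, are chr8:11312777-11313076 on the minus strand for *Col4a1* and chr8:11312555-11312854 on the plus strand for *Col4a2*. Their starts are 21 bases apart. Capitals mark the 78 bases that both windows share, which are reverse complements of each other.
Col4a1: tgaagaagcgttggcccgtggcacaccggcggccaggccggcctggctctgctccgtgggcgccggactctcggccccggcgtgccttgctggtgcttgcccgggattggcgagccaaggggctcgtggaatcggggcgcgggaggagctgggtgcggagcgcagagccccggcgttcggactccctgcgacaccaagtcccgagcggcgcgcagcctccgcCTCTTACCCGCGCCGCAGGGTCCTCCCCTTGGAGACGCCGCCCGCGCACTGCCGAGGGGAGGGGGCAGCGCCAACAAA
Col4a2: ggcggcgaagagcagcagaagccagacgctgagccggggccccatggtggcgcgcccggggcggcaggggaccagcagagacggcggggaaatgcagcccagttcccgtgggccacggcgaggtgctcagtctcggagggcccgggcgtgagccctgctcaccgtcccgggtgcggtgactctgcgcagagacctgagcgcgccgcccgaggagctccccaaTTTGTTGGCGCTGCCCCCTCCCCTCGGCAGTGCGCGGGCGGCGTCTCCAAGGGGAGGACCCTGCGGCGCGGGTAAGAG

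Fibrillar collagen genes are shown by *Col1a2* (chr6:4505368-4505667, plus strand) and *Col3a1* (chr1:45311288-45311587, plus strand) of the same build, since *Col3a1* led this group in both fractions. Capitals mark, on either strand, the letters TATAAA as searched for the TATA motif, CCAAT as searched for the CCAAT motif, and GGGCGG as searched for GC boxes.
Col1a2: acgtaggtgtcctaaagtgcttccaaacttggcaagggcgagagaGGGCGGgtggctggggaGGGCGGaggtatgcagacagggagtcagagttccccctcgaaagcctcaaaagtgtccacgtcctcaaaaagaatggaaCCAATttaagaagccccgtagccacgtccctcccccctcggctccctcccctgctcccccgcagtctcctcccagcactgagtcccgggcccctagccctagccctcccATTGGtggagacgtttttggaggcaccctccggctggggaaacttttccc
Col3a1: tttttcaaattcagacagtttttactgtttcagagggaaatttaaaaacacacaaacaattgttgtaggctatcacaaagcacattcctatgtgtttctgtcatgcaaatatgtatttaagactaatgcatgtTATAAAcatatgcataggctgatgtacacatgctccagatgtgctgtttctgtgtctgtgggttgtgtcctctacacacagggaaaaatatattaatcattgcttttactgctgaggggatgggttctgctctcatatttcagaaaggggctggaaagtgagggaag

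The *Col1a2* window held CCAAT 2 times and GGGCGG 2 times and no TATAAA, and the *Col3a1* window held TATAAA 1 time and neither of the others. Their GC contents were 61.0% and 37.7%, and those of *Col4a1* and *Col4a2* were 74.0% and 73.7%. Windows were found for 41 of the 55 members, 48 windows in all. GGGCGG stood in 62.5% of them and in 35.7% of all 32851 windows, CCAAT in 31.2% and 37.4%, and TATAAA in 10.4% and 13.6%. A match of letters is a description and not a binding site.

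In control LSECs the matrix genes were abundant, and most were far lower in control non-EC cells. The 55 members summed to 4678 TPM in control LSECs, 0.468% of the total, and to 855 TPM, 0.0855%, in control non-EC cells. Of them 11 were at 100 TPM or more in control LSECs, led by *Sparc*, *Col3a1*, *Col1a2* and *Col4a1*, and only *Fn1* and *Vtn* were so in control non-EC cells, where 28 were under 1 TPM. By limma on log2(TPM + 1) over 13775 genes, 47 members were higher and 2 lower in control LSECs at an adjusted p under 0.05 and a log2 fold change above 1 in size, the study's thresholds for differentially expressed genes (DEGs). Among all genes tested, 19.4% were DEGs higher in LSECs and 13.3% lower. Among the 34 members that reached 1 TPM in 3 or more non-EC libraries, 30 were higher and 2 lower. The median log2 fold change was 2.24 over the 55 members and -0.09 over all genes. That of the members rests in part on the 21 that entered through LSEC libraries only. In these bulk samples fewer cells of a type and less RNA per cell cannot be told apart. Endothelial, stellate, mesothelial and macrophage marker sums (the last 481 against 133 TPM, 8 of 8 markers higher) were higher in LSECs too, and their part in the differences was not tested.

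**Figure D1:**
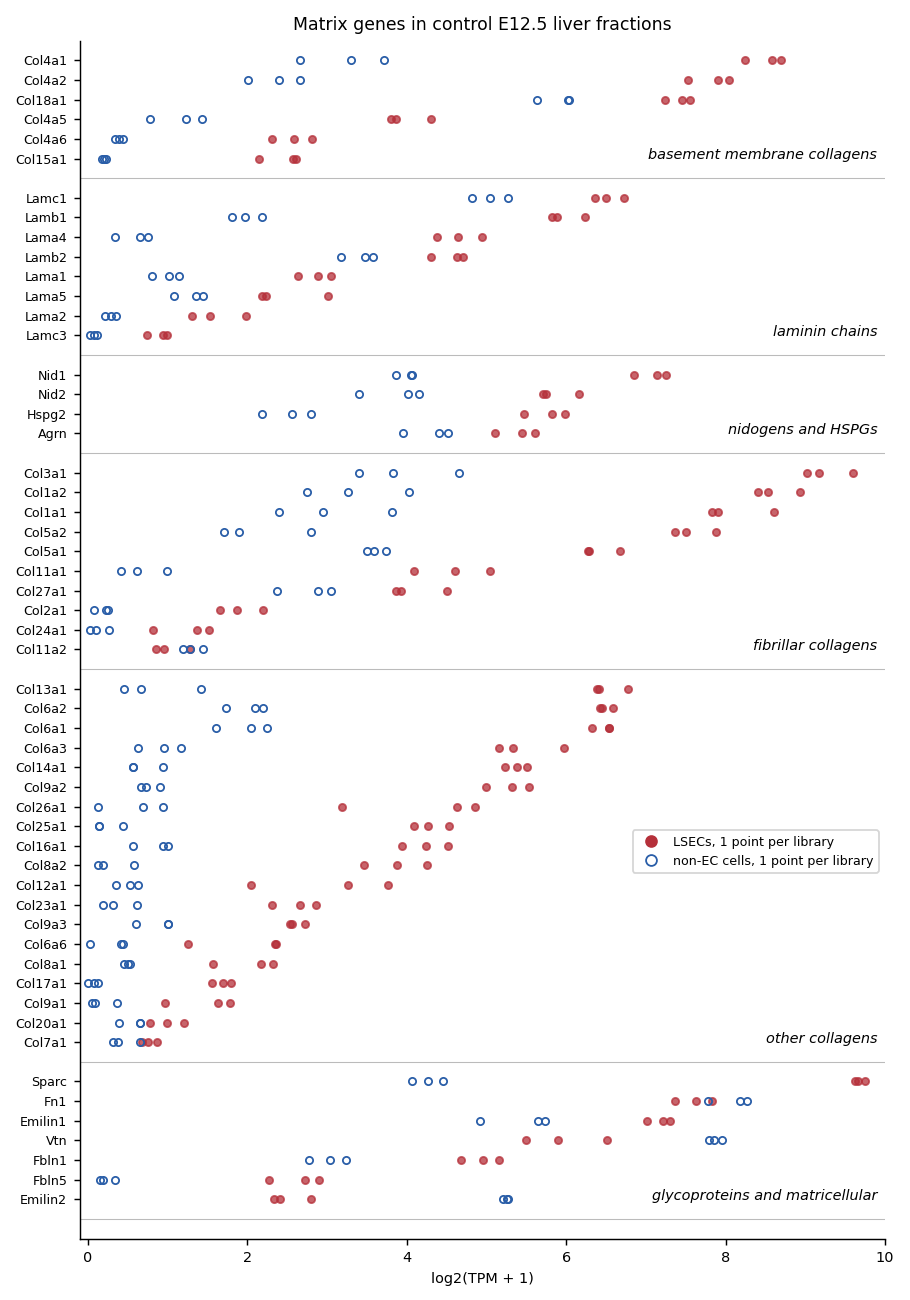
Levels of 54 members in control libraries, as log2(TPM + 1) on the x axis, with genes on the y axis grouped by role and ordered by their mean in LSECs. Filled points are the 3 LSEC libraries and open points the 3 non-EC libraries. The filled points lie to the right for most genes, 47 of them DEGs, and to the left for *Vtn* and *Emilin2*.

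All 6 basement membrane collagens were DEGs higher in control LSECs, among them *Col4a6* and *Col15a1*, which entered through LSEC libraries only, so that 4 of 4 remain without that condition. *Col4a1*, which supplies most chains of the common collagen IV trimer, had 382, 414 and 301 TPM in control LSECs and 12.1, 8.86 and 5.31 TPM in control non-EC cells (means 366 ± 58.5 and 8.75 ± 3.39, SD, n = 3, log2 fold change 5.28, standard error 0.23, adjusted p = 8.88e-14). Its partner *Col4a2* had 239, 262 and 183 TPM against 5.34, 4.26 and 3.03 TPM (log2 fold change 5.47, standard error 0.20, adjusted p = 4.14e-15), the largest difference of the group. The groups of both genes lay far apart, and control LSEC replicate 3 was lowest for each. *Col18a1*, whose C-terminal fragment is endostatin, had 175, 187 and 149.8 TPM against 63.9, 48.8 and 64.8 TPM (log2 fold change 1.52, standard error 0.17, adjusted p = 1.77e-07), the smallest difference of the group. It was the only basement membrane collagen above 10 TPM on average in control non-EC cells. The X-linked pair *Col4a5* and *Col4a6* was lower, at 8.49 to 20.3 and 3.39 to 8.37 TPM over the 12 LSEC libraries, and *Col15a1* was at 4.50 ± 0.940 TPM. *Col4a3* and *Col4a4*, the chains of mature kidney basement membrane, reached at most 0.277 and 0.388 TPM in any library.

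Laminin chains were higher in control LSECs for 7 of 9 members, and for 5 of the 5 that reached 1 TPM in 3 or more non-EC libraries. *Lamc3*, at up to 1.56 TPM, had a log2 fold change of 0.81 (adjusted p = 3.79e-05), below the fold threshold. The scale of log2(TPM + 1) understates changes of such low genes. Its ratio of control means was 15.85, on a non-EC mean of 0.0542 TPM. Among α chains of control LSECs the order was *Lama4* (24.5 ± 5.09 TPM), known from vessel walls, then *Lama1* (6.32 ± 1.05), *Lama5* (4.77 ± 1.98) and *Lama2* (2.10 ± 0.759). *Lama1* and *Lama5* did not differ beyond their spread. *Lama4* had 29.9, 19.7 and 23.9 TPM in control LSECs and 0.567, 0.265 and 0.689 TPM in control non-EC cells (log2 fold change 4.07, standard error 0.17, adjusted p = 6.64e-14), the largest difference among laminins. However, *Lama4* entered through LSEC libraries only, so that a higher level there was a condition of its entry. Among the 5 laminins without that condition the largest log2 fold change was 3.99, for *Lamb1*. *Lamc1*, the γ chain shared by most laminins, had 105, 89.7 and 81.0 TPM against 31.9, 27.1 and 37.5 TPM (log2 fold change 1.49, standard error 0.22, adjusted p = 5.34e-06) and led the laminins in both fractions. *Lamb2* (chromosome 9 from 108356935 to 108367729 in GRCm39) had 25.1, 23.8 and 18.7 TPM against 10.9, 8.02 and 10.1 TPM (log2 fold change 1.14, standard error 0.15, adjusted p = 1.31e-06), the smallest difference among the laminins called. *Lamb1*, the other β chain, had 62.6 ± 10.3 and 2.99 ± 0.533 TPM, so that *Lamb1* exceeded *Lamb2* in LSECs and was below it in non-EC cells. The abundance of each kind of chain was summed over its genes. In control LSECs α chains summed to 37.7 ± 7.53 TPM, β chains to 85.1 ± 12.5 and γ chains to 93.8 ± 12.3. In control non-EC cells the sums were 3.19 ± 0.787, 12.7 ± 1.99 and 32.3 ± 5.16 TPM. Transcripts of α chains were the fewest in both fractions, and the β and γ sums of control LSECs lay within their spread.

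The linkers of both networks followed. *Nid1* had 151, 139.7 and 114 TPM in control LSECs and 15.8, 15.5 and 13.6 TPM in control non-EC cells (log2 fold change 3.08, standard error 0.22, adjusted p = 1.13e-10). *Hspg2*, the gene of perlecan, had 62.4, 55.6 and 43.2 TPM against 5.93, 3.55 and 4.88 TPM (log2 fold change 3.25, standard error 0.22, adjusted p = 4.74e-11), the largest difference of the group, and *Nid2* had 58.2 ± 10.6 against 13.8 ± 3.82 TPM. *Agrn*, the gene of agrin, was the most abundant of the 4 in control non-EC cells, with 20.2, 14.5 and 21.9 TPM against 47.6, 42.6 and 33.6 TPM in LSECs (log2 fold change 1.09, standard error 0.23, adjusted p = 0.000261). Its call was lost without control LSEC replicate 1 (0.98) or control non-EC replicate 2 (0.92).

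Fibrillar collagens, the rope-like collagens of connective tissue, were higher in control LSECs for 9 of 10 members, and for 6 of the 7 that also reached the threshold in non-EC cells. *Col3a1* had 772, 519 and 576 TPM against 24.1, 9.59 and 13.2 TPM (log2 fold change 5.30, standard error 0.31, adjusted p = 5.09e-12), and *Col1a2* and *Col1a1* had means of 398 ± 78.9 and 284 ± 90.6 TPM against 9.89 ± 4.89 and 8.03 ± 4.54. *Col5a2*, a chain of the type V collagen found in type I fibrils, had 234, 163 and 180.2 TPM against 5.98, 2.26 and 2.71 TPM (log2 fold change 5.45, standard error 0.31, adjusted p = 4.42e-12), the largest difference of the group. Control LSEC replicate 1 was the highest of its group for each of these genes. *Col24a1* had 1.86, 0.769 and 1.58 TPM against 0.0720, 0.0187 and 0.202 TPM (log2 fold change 1.10, standard error 0.23, adjusted p = 0.000203), the smallest difference called in the group, which ended under quantile normalization (0.57) and without control LSEC replicate 1 (0.97). However, *Col24a1* entered through LSEC libraries only, so that a higher level there was a condition of its entry. Among the 6 called without that condition the smallest log2 fold change was 1.33, for *Col27a1*. The scale of log2(TPM + 1) understates changes of low genes. As a ratio of control means, *Col24a1* had 14.4 and *Col27a1* 2.78. *Col11a2* was not called (1.06 ± 0.327 and 1.47 ± 0.222 TPM, log2 fold change -0.27, standard error 0.18, adjusted p = 0.189). Fibrillar collagens are known as products of mesenchymal cells, and the stellate marker sum of 713 to 827 TPM in control LSECs stood beside them.

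Of the 19 other collagens, 17 were DEGs higher in control LSECs, but 11 had entered through LSEC libraries only, and of the remaining 8 all 8 were higher. *Col7a1* (0.32, adjusted p = 0.0525) and *Col20a1* (0.43, adjusted p = 0.0334) were not. *Col13a1*, a transmembrane collagen, had 108, 82.6 and 84.1 TPM against 1.68, 0.367 and 0.587 TPM (log2 fold change 5.68, standard error 0.23, adjusted p = 1.99e-14), the largest difference of any member. The beaded-filament chains *Col6a1*, *Col6a2* and *Col6a3* had means of 87.6 ± 7.55, 88.6 ± 5.40 and 45.2 ± 14.4 TPM in control LSECs. *Col6a2* was also the highest of this group in control non-EC cells, with 3.28, 2.33 and 3.58 TPM there against 86.3, 94.8 and 84.7 TPM (log2 fold change 4.47, standard error 0.20, adjusted p = 1.14e-13). *Col9a1*, a chain best known from cartilage, had 2.43, 0.956 and 2.10 TPM against 0.292, 0.0650 and 0.0391 TPM (log2 fold change 1.29, standard error 0.20, adjusted p = 1.17e-05), and lost its call under quantile normalization (0.73). It was among the 11 that entered through LSEC libraries only, so that a higher level there was a condition of its entry. The log2(TPM + 1) scale understates its change, since the ratio of control means was 13.85 on a non-EC mean of 0.132 TPM.

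Among the 7 glycoproteins, 4 were higher in control LSECs (3 of the 6 that reached the threshold in non-EC cells), 2 lower and *Fn1* neither. *Sparc*, a collagen-binding matricellular protein, was the most abundant member, with 808, 861 and 790.0 TPM against 20.9, 15.7 and 18.3 TPM (log2 fold change 5.42, standard error 0.16, adjusted p = 3.1e-16). *Fn1*, the gene of fibronectin, which hepatocytes also secrete into plasma, had 226, 197 and 164 TPM in control LSECs and 289, 219 and 306 TPM in control non-EC cells (log2 fold change -0.47, standard error 0.30, adjusted p = 0.177), and the groups overlapped. *Vtn* (chromosome 11 from 78388717 to 78393156), the gene of the plasma protein vitronectin, was lower in LSECs, with 58.5, 90.1 and 44.1 TPM against 231, 220.0 and 247 TPM (log2 fold change -1.90, standard error 0.37, adjusted p = 0.000114). *Emilin2* (chromosome 17 from 71559167 to 71618973 in GRCm39), an elastin microfibril interface protein, had 5.96, 4.06 and 4.30 TPM against 36.0, 37.7 and 37.1 TPM (log2 fold change -2.73, standard error 0.15, adjusted p = 2.57e-12), while its paralog *Emilin1* went the other way, with 157, 148 and 128 TPM against 49.1, 29.3 and 52.1 TPM (log2 fold change 1.74, standard error 0.17, adjusted p = 1.55e-08). Hepatoblast, erythroid and megakaryocyte marker sums were likewise lower in control LSECs than in control non-EC cells (4658 against 17183, 414 against 3085 and 297 against 1122 TPM), and their part in the levels of *Vtn* and *Emilin2* was not tested.

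In each mutant genotype LSECs were compared with non-EC cells in the same model of all 24 libraries. In the order *Brg1/Chd4-ECdko*, *Chd4-ECko* and *Brg1-ECko*, 46, 44 and 44 members were higher in LSECs, beside 19.8%, 21% and 18.3% of all genes, and 2, 3 and 2 were lower, beside 8.57%, 11.1% and 8.26%. Of the 34 members that reached 1 TPM in 3 or more non-EC libraries, 27, 26 and 26 were higher. *Vtn* and *Emilin2* were lower in every genotype, and *Fn1* was a DEG lower in LSECs in *Chd4-ECko* (log2 fold change -1.29, adjusted p = 0.000796). After quantile normalization, and without mitochondrial genes, 2 members in place of 3 were lower in *Chd4-ECko*, with *Emilin2* at -1.55 and -1.24. In *Brg1-ECko* *Fn1* was lower below the fold threshold (-0.77, adjusted p = 0.0315), and its values were -0.66 (adjusted p = 0.0614) in *Brg1/Chd4-ECdko* and -0.47 in control. The test of *Chd4-ECko* against control gave -0.82 (adjusted p = 0.295).

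Genes of matrix assembly moved with the collagens between the control fractions. Of the 25 genes of collagen folding and crosslinking that could be tested, 19 were higher and 1 lower in control LSECs, with a median log2 fold change of 2.44. Only 23 of the 25 reached 1 TPM in 3 or more non-EC libraries. The others needed LSEC libraries to enter, so that these counts rest in part on that condition. The 4 folding and crosslinking genes with the largest change were the collagen IV crosslinking peroxidase *Pxdn* (5.10), the collagen chaperone *Serpinh1* (4.47, 1216 ± 36.4 against 54.7 ± 11.5 TPM), the prolyl hydroxylase family member *P3h3* (4.22) and the procollagen C-proteinase enhancer *Pcolce* (3.95). Of 25 matrix receptors tested, 14 were higher and 4 lower, beside the 19.4% higher and 13.3% lower among all genes that hold for both lists. The receptors were led by the integrin genes *Itga8* (4.11) and *Itga9* (3.48) and the discoidin domain receptors *Ddr2* (3.50) and *Ddr1* (3.27). Of the 25 receptors, 20 reached 1 TPM in 3 or more non-EC libraries, and the others needed LSEC libraries to enter. *Itga8* and *Ddr2* were under 1 TPM on average in every non-EC group, at 0.43 to 0.80 and 0.54 to 0.78 TPM. Their place in this order may rest in part on entry through LSEC libraries.

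Ratios of TPM are given for genes whose chains assemble together, and for *Col3a1* with *Col5a2*, whose chains belong to different collagens. The ratio of *Col4a1* to *Col4a2* TPM was 1.57 to 1.82 (median 1.70) in the 12 LSEC libraries, while *Col4a1* itself varied 1.66-fold from the lowest to the highest, and 1.56 to 2.35 (median 1.92) in the 12 non-EC libraries. The ratio of *Col6a1* to *Col6a2* was 0.931 to 1.07 in LSECs and 0.704 to 1.29 in non-EC cells. That of *Col1a1* to *Col1a2* was 0.636 to 0.954 and 0.596 to 0.879, below the 2 to 1 of the type I collagen trimer. *Col4a5* exceeded *Col4a6* by 2.30 to 3.44 times in LSECs and 2.45 to 4.77 times in non-EC cells, and the fibril genes *Col3a1* and *Col5a2* had ratios of 3.18 to 3.91 and 1.67 to 5.45. The laminin pair differed between the fractions, since the ratio of *Lamb1* to *Lamc1* was 0.470 to 0.766 in LSECs and 0.0783 to 0.161 in non-EC cells, with no overlap. Ratios rest on TPM and on the authors' transcript lengths.

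**Figure D2:**
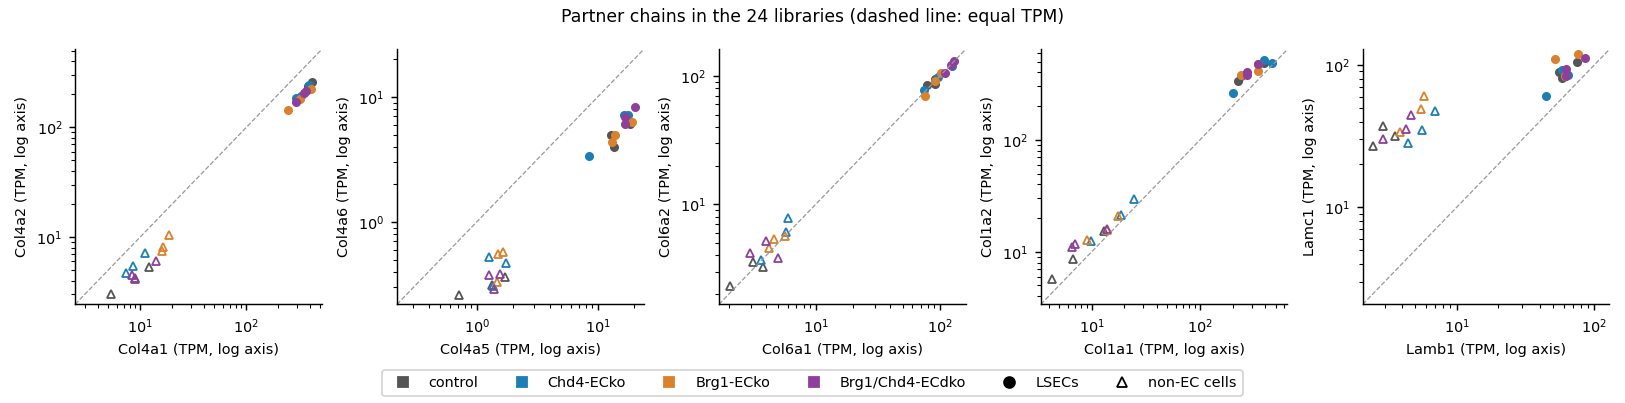
TPM of partner chains in the 24 libraries on log axes, 1 panel per pair, with filled circles for LSECs, open triangles for non-EC cells and colors for genotypes. The dashed line marks equal TPM, and points parallel to it keep a constant ratio. *Lamb1* and *Lamc1* have ratios with a median of 0.713 in LSECs and 0.113 in non-EC cells, seen as a larger distance of the triangles from the line.

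Between *Chd4-ECko* and control LSECs *Emilin2* was the matrix gene called, and it was higher in the mutant. In *Chd4-ECko* LSECs 1 of 55 members was a DEG, beside 0.521% of the 13444 genes tested, and the median log2 fold change was -0.01 over the members and 0.01 over all genes. *Emilin2* had 5.96, 4.06 and 4.30 TPM in control and 12.8, 14.6 and 15.5 TPM in *Chd4-ECko* LSECs (log2 fold change 1.41, standard error 0.18, adjusted p = 0.00177). The groups did not overlap, and the lowest *Chd4-ECko* library (12.8 TPM) was well above the highest control (5.96 TPM). An exact two-sided permutation test of 3 against 3 libraries gave p = 0.1, the smallest it can give, for this gene. Over 14 alternative fits the log2 fold change stayed between 1.32 and 1.57 and the adjusted p between 0.00143 and 0.0207. The sum of 8 macrophage markers moved with it, at 424 to 528 TPM in control and 574 to 911 in *Chd4-ECko* LSECs, and the megakaryocyte sum was 288 to 305 and 167 to 457 TPM, and their part in the result was not tested.

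The next members by p did not pass. *Col9a3* had 4.89, 4.81 and 5.58 TPM in control and 12.2, 6.12 and 8.10 TPM in *Chd4-ECko* LSECs (log2 fold change 0.64, standard error 0.26, adjusted p = 0.585), and *Col8a1*, a short-chain collagen of vessel walls, had 3.52, 1.97 and 4.02 TPM and 1.77, 1.85 and 1.71 TPM (log2 fold change -0.55, standard error 0.24, adjusted p = 0.718). Neither pair of groups overlapped. Of the 55 members 2 lay fully above control and 1 fully below, beside 1169 and 491 of all 13444 genes. The basement membrane genes had small differences, with log2 fold changes of -0.10 for *Col4a1*, -0.13 for *Col4a2*, -0.22 for *Lamc1*, -0.19 for *Lama4*, -0.03 for *Nid1* and 0.07 for *Hspg2*, with standard errors of 0.17 to 0.19. *Chd4-ECko* replicate 2 was lowest of its group for *Col3a1* (723, 439.9 and 771 TPM) and *Lamc1* (92.5, 60.6 and 84.9 TPM). No gene of collagen folding or of the matrix receptors was a DEG in LSECs of any genotype.

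In *Brg1-ECko* LSECs 0 of 55 members and 2 of 13444 genes (0.0149%) were DEGs by limma, and 5 members had an unadjusted p under 0.05, near the 9.68% of all genes. *Emilin2* was again the member with the smallest p, with 12.1, 10.3 and 8.54 TPM (log2 fold change 0.97, standard error 0.18, adjusted p = 0.115) above all 3 controls, beside a macrophage sum of 407 to 595 TPM. It was the 1 member of 55 fully above control, beside 1465 of 13444 genes. *Vtn* had 390.2, 88.9 and 99.7 TPM against 58.5, 90.1 and 44.1 TPM (log2 fold change 1.28, standard error 0.44, adjusted p = 0.413), and its mean rests on replicate 1, the library with the high hepatoblast sum. *Fn1* was also highest there, with 567, 181 and 246 TPM (log2 fold change 0.59, standard error 0.31, adjusted p = 0.57). *Sparc* had 434, 699.9 and 677 TPM against 808, 861 and 790.0 TPM (log2 fold change -0.47, standard error 0.18, adjusted p = 0.43), and replicate 1 was lowest. The endothelial sums of these *Brg1-ECko* libraries were 914, 1184 and 1451 TPM against 1810, 1882 and 1441 TPM in control, and their part in the lower *Sparc* values was not tested. Without replicate 1 the log2 fold change of *Vtn* was 0.61 and that of *Sparc* -0.25, and 0 members were called.

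In *Brg1/Chd4-ECdko* LSECs *Emilin2* was the 1 member called, beside 0.565% of all genes, with 11.4, 14.4 and 11.2 TPM (log2 fold change 1.21, standard error 0.18, adjusted p = 0.00631) and no overlap with control. Its log2 fold change was 1.01 to 1.36 and its adjusted p 0.00284 to 0.0414 over 14 alternative fits. The macrophage sum was 452 to 677 TPM in these libraries. In them 7 of 55 members lay fully above control, beside 2803 of 13444 genes. Against *Chd4-ECko* directly, 0 members and 5 genes (0.0372%) were called in *Brg1/Chd4-ECdko* LSECs, 2 members had an unadjusted p under 0.05 (10.4% of all genes), and *Emilin2* differed by -0.20 (standard error 0.18, adjusted p = 0.65). *Col2a1* had 6.19, 3.88 and 8.30 TPM against 3.59, 2.15 and 2.66 TPM in control (log2 fold change 0.87, standard error 0.32, adjusted p = 0.276) and *Col6a1* had 111, 124 and 131 TPM against 91.9, 92.0 and 78.9 TPM (log2 fold change 0.47, standard error 0.17, adjusted p = 0.294), and neither passed. The adjusted p of *Col2a1* was 0.0465 to 0.788 over the alternatives, lowest with the replicate number as a block, where its log2 fold change stayed below the threshold. All genes together were shifted in this comparison, with a median of 0.16 (-0.00 after quantile normalization), and the members' median was 0.15 (0.04).

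**Figure D3:**
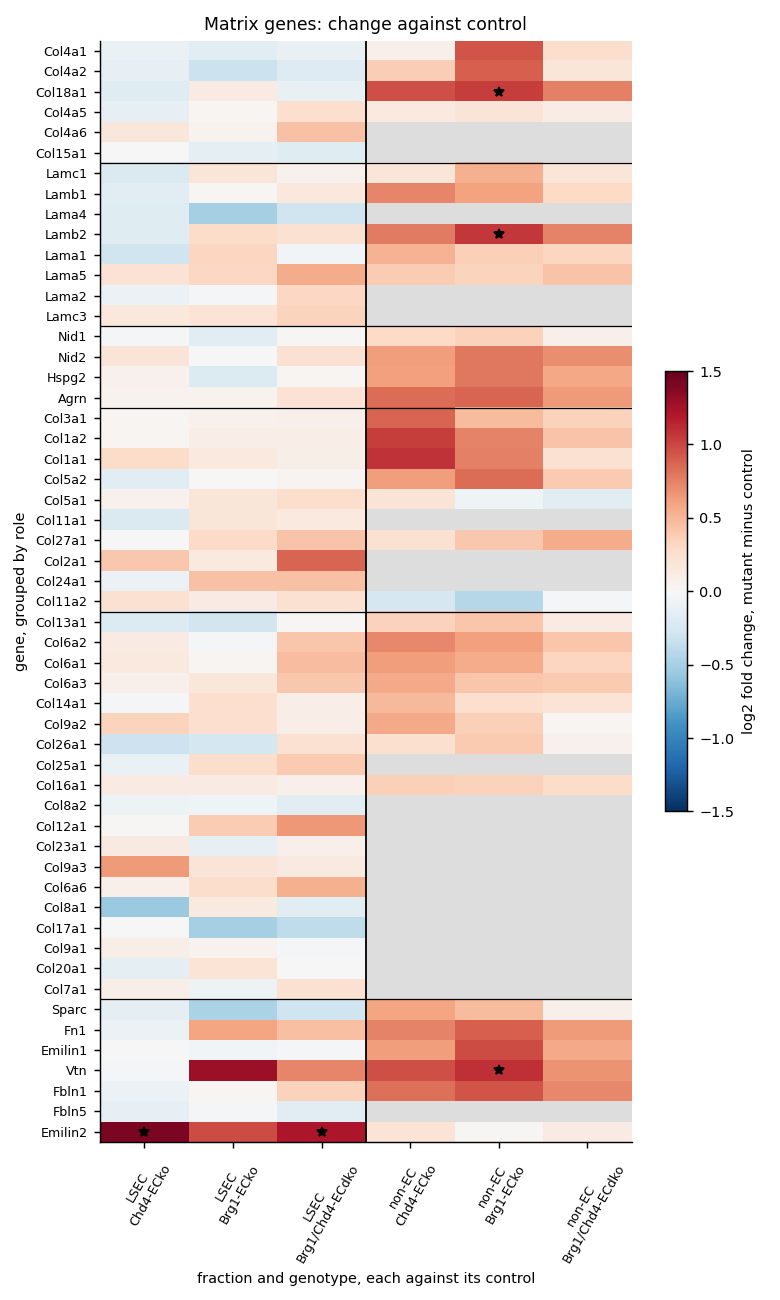
Log2 fold change of each mutant against the control of its fraction, from blue (lower) to red (higher), for 54 members (y axis, grouped by role) in LSECs (left 3 columns) and non-EC cells (right 3 columns). Stars mark DEGs and gray cells the 20 of them not tested in non-EC cells. The non-EC columns are red for most genes, and in LSECs *Emilin2* carries the 2 stars.

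In non-EC cells some members, among them *Vtn* and *Lamb2*, were higher than control at an adjusted p under 0.05, and *Vtn*, *Lamb2* and *Col18a1* also passed the fold threshold in *Brg1-ECko*. The 34 members that reached 1 TPM in 3 or more non-EC libraries were tested, beside 12223 genes. In *Chd4-ECko* the difference was positive for 33 of 34, all but *Col11a2* (median 0.58, all genes 0.01), and none was a DEG (0.884% of all genes), while 20 had an unadjusted p under 0.05 (33.9% of all genes). At an adjusted p under 0.05 with no fold threshold 7 were higher (6.17% of all genes) and 0 lower. In *Brg1-ECko* 32 of 34 were positive, all but *Col11a2* and *Col5a1* (median 0.54, all genes 0.02), 3 were DEGs (1.37%) and 11 were higher at an adjusted p under 0.05 (8.91%). In *Brg1/Chd4-ECdko* the same 32 were positive (median 0.32, all genes 0.01), 0 were DEGs (0.115%), 11 had an unadjusted p under 0.05 (11.7%) and 2 were higher at an adjusted p under 0.05 (0.565%). Groups of 3 libraries lay fully above control for 14, 16 and 14 members, beside 15.8%, 21.9% and 16% of all genes. The 3 comparisons share their control libraries, so that they are not independent of each other.

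*Vtn* had 231, 220.0 and 247 TPM in control non-EC cells. In those of the mutants it had 454, 434 and 476 TPM (*Chd4-ECko*), 574, 400.5 and 536 TPM (*Brg1-ECko*) and 418, 348 and 353 TPM (*Brg1/Chd4-ECdko*). Every mutant library was above every control. The log2 fold changes were 0.96 (standard error 0.13, adjusted p = 0.00425), 1.10 (adjusted p = 0.00128, a DEG) and 0.68 (adjusted p = 0.0466).

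*Lamb2* had, in the same order, 10.9, 8.02 and 10.1 TPM, 18.4, 14.6 and 19.0 TPM, 22.1, 19.2 and 22.4 TPM and 16.7, 18.3 and 15.2 TPM, again with no overlap. Its log2 fold changes were 0.78 (adjusted p = 0.0102), 1.07 (standard error 0.14, adjusted p = 0.00154, a DEG) and 0.74 (adjusted p = 0.0466). *Col18a1* had 63.9, 48.8 and 64.8 TPM in control, then 124, 102 and 123 TPM, 158, 88.2 and 129.7 TPM and 108, 107 and 85.9 TPM, with log2 fold changes of 0.97 (adjusted p = 0.0163), 1.04 (standard error 0.20, adjusted p = 0.00707, a DEG) and 0.76 (adjusted p = 0.104). In *Brg1/Chd4-ECdko* the adjusted p of *Vtn* and *Lamb2* was 0.05 or more without any 1 of the 6 libraries (up to 0.209 and 0.196), and in *Chd4-ECko* that of *Lamb2* was 0.0905 when only the compared groups were fitted. All 3 calls in *Brg1-ECko* sit at the fold threshold. *Lamb2* fell to 0.95 without control replicate 2, *Vtn* to 0.99 without *Brg1-ECko* replicate 1, and *Col18a1* to 0.91, 0.86 and 1.00 without control replicate 2 and *Brg1-ECko* replicates 1 and 3.

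*Fbln1*, a fibulin of elastic fibers and basement membranes, was among the 3 smallest p-values in *Chd4-ECko* and *Brg1/Chd4-ECdko*, with 8.41, 5.86 and 7.19 TPM in control, 11.8, 13.3 and 15.1 TPM in *Chd4-ECko* (log2 fold change 0.82, standard error 0.15, adjusted p = 0.00945) and 11.2, 12.2 and 13.7 TPM in *Brg1/Chd4-ECdko* (log2 fold change 0.72, standard error 0.15, adjusted p = 0.0537). The other members higher at an adjusted p under 0.05 in *Chd4-ECko* were *Col18a1*, *Sparc*, *Agrn* and *Lamb1*, and in *Brg1-ECko* *Emilin1*, *Agrn*, *Col4a1*, *Col4a2*, *Fn1*, *Nid2*, *Sparc* and *Fbln1*. *Col4a1* had 16.3, 18.8 and 16.1 TPM in *Brg1-ECko* non-EC cells against 12.1, 8.86 and 5.31 TPM in control (log2 fold change 0.95, standard error 0.26, adjusted p = 0.0391), and *Col4a2* 8.17, 10.3 and 7.42 TPM against 5.34, 4.26 and 3.03 TPM (log2 fold change 0.90, standard error 0.21, adjusted p = 0.0184). In *Chd4-ECko* their log2 fold changes were 0.07 and 0.37. The fibrillar collagens *Col1a1* and *Col1a2* had the largest fold changes in *Chd4-ECko* non-EC cells, 1.09 and 1.04, with adjusted p = 0.0985 and 0.0708, and *Col1a1* had 24.7, 9.83 and 18.8 TPM there against 13.1, 4.28 and 6.73 TPM in control. Both were called in the fit with the replicate number as a block. Among collagen folding genes *Serpinh1* was a DEG in *Brg1-ECko* (1.21, 127 ± 11.6 against 54.7 ± 11.5 TPM, adjusted p = 0.00230), and 10 of 23 were higher at an adjusted p under 0.05 in *Chd4-ECko* (6.17% of all genes) and in *Brg1-ECko* (8.91%) each. The syndecan *Sdc4* was the receptor called, in *Chd4-ECko* (1.11, adjusted p = 0.00390) and *Brg1-ECko* (1.08, adjusted p = 0.00128).

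Marker sums of other cells moved with these genes in the non-EC libraries. The sum of 10 hepatoblast markers was 16432 to 18302 TPM in control, 20873 to 28009 in *Brg1/Chd4-ECdko*, 24583 to 33822 in *Chd4-ECko* and 23913 to 35444 in *Brg1-ECko*, so that no mutant library overlapped the controls. The 12 stellate and mesenchymal markers summed to 43.9 to 70.5 TPM in control and 91.1 to 102, 75.3 to 134 and 78.3 to 127 in the mutants in the same order, again without overlap. *Reln* alone made up 32.2 to 107 TPM of this sum over the 12 libraries. Macrophage markers summed to 79.2 to 172 TPM in control and 87.7 to 170.5, 148 to 249 and 159.8 to 225, and mesothelial markers to 11.6 to 21.2 and 15.7 to 24.8, 15.2 to 31.7 and 15.7 to 26.1. Erythroid markers summed to 1818 to 4462 TPM in control and 1651 to 2470, 1690 to 4326 and 994 to 2071 in the mutants. Endothelial markers summed to 52.4, 29.8 and 44.8 TPM in control, against 43.9, 65.5 and 49.4 TPM among the *Brg1-ECko* libraries, and *Brg1-ECko* replicate 2, the highest, was also highest for *Col4a1* and *Col4a2*. The part of these cell types in the matrix differences was not tested. Basement membrane collagens summed to 83.6, 63.1 and 74.9 TPM in control and 185, 119.6 and 156 TPM in *Brg1-ECko*. The sums were 123, 130 and 101 TPM for *Brg1/Chd4-ECdko* libraries, and 139, 117 and 144 TPM for those of *Chd4-ECko*. *Col18a1* alone made up most of the sum, on average 59.2 of 73.9 TPM in control and 125 of 153 TPM in *Brg1-ECko*.

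**Figure D4:**
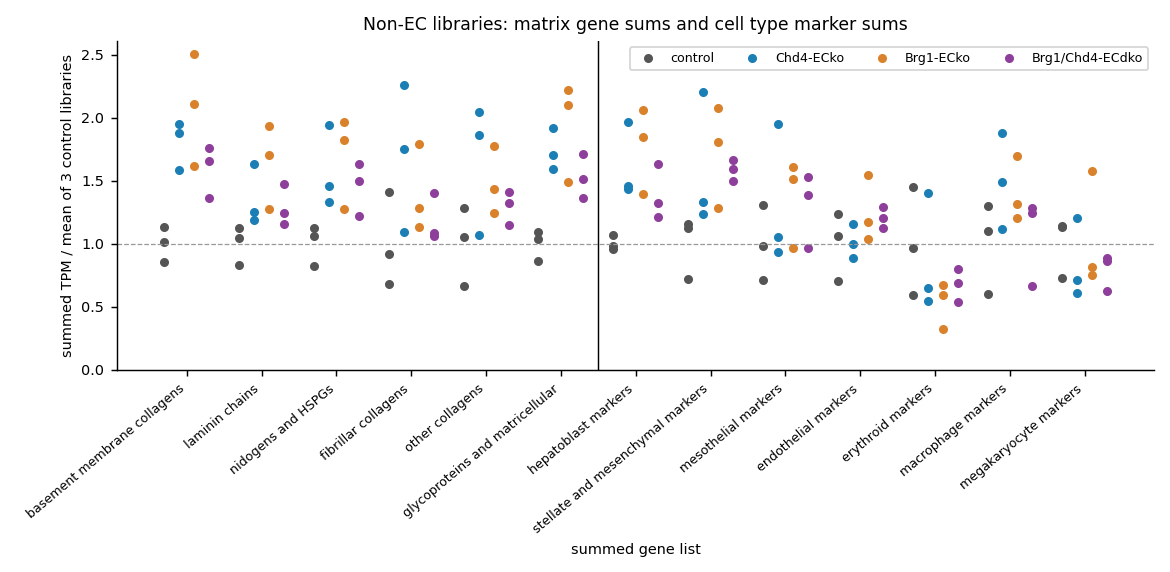
Summed TPM of the 6 role groups (left of the line) and of the cell type marker lists (right) in the 12 non-EC libraries, each divided by the mean of the 3 control libraries (dashed line at 1), with 1 point per library and colors for genotypes. Basement membrane collagens, laminin chains, nidogens with heparan sulfate proteoglycans, and glycoproteins lie above all controls in every mutant library. So do hepatoblast markers and stellate and mesenchymal markers. *Col18a1* makes up most of the basement membrane collagen sum. Erythroid markers lie below 1 in all but 1 of the 9 mutant libraries.

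Whether a genotype acted differently in the fractions was tested as the LSEC effect minus the non-EC effect in a model of all 24 libraries. For *Chd4-ECko*, *Emilin2* (+1.21, adjusted p = 0.0125) and *Col18a1* (-1.15, adjusted p = 0.0286) were called, beside 0.69% of all genes, and *Lamb2* (-0.96, adjusted p = 0.0343) joined them with no fold threshold, beside 1.02%, with adjusted p-values of up to 0.106 over the alternatives. *Emilin2* rose in *Chd4-ECko* LSECs and had 35.6, 42.9 and 50.9 TPM against 36.0, 37.7 and 37.1 TPM in non-EC cells (log2 fold change 0.20, standard error 0.12, adjusted p = 0.266). *Col18a1* went from 175, 187 and 149.8 TPM to 168, 124 and 160.3 TPM in LSECs (log2 fold change -0.18, standard error 0.14, adjusted p = 1) and was higher in *Chd4-ECko* non-EC cells. Its call was lost (adjusted p of 0.0501 to 0.0833) without control LSEC replicate 1 or 2, *Chd4-ECko* LSEC replicate 2, control non-EC replicate 2 or 3, or *Chd4-ECko* non-EC replicate 3. That of *Emilin2* was lost without control LSEC replicate 2 (1.12, adjusted p = 0.0509).

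For *Brg1-ECko*, *Col4a2* (-1.22, adjusted p = 0.0359) and *Emilin1* (-1.02, adjusted p = 0.0426) were called, beside 0.639% of all genes. With no fold threshold *Emilin2* (+0.96, adjusted p = 0.0332) and *Sparc* (-0.95, adjusted p = 0.0424) passed too, beside 1.04%, and with paired libraries they had adjusted p-values of 0.0506 and 0.0809. Over all alternatives these reached 0.102 and 0.11. *Col4a2* had 144, 182 and 224 TPM in *Brg1-ECko* LSECs against 239, 262 and 183 TPM in control (log2 fold change -0.32, standard error 0.18, adjusted p = 0.598), and was higher in *Brg1-ECko* non-EC cells. *Emilin1* had 143, 123 and 156 TPM against 157, 148 and 128 TPM in LSECs and 91.9, 79.6 and 81.5 TPM against 49.1, 29.3 and 52.1 TPM in non-EC cells. With LSEC and non-EC libraries of the same number and genotype paired, *Emilin1* had an adjusted p of 0.0533 and *Col4a2* was the 1 member called. Without LSEC replicate 1 of *Brg1-ECko*, the library with the high hepatoblast sum, 0 were called (*Col4a2* -1.06, adjusted p = 0.0844, and *Emilin1* -1.03, adjusted p = 0.0713). With 1 library left out at a time, *Col4a2* was still called only without control LSEC replicate 3, *Brg1-ECko* LSEC replicate 3, control non-EC replicate 1 or *Brg1-ECko* non-EC replicate 3, and *Emilin1* only without *Brg1-ECko* LSEC replicate 3 or control non-EC replicate 1 or 3.

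For *Brg1/Chd4-ECdko*, 0 members were called, beside 0.0581% of all genes with and without the fold threshold, 4 members had an unadjusted p under 0.05, near the 7.57% of all genes, and *Emilin2* was +1.09 (adjusted p = 0.0611). Of the pathway genes, *Serpinh1* was called for *Chd4-ECko* (-1.14, adjusted p = 0.0384) and *Brg1-ECko* (-1.63, adjusted p = 0.00872), with *Fkbp10* in both (-1.04 and -1.09) and *Pcolce* in *Brg1-ECko* (-1.20). Among receptors *Cd44* (1.15, adjusted p = 0.0460) and *Sdc1* (-1.02, adjusted p = 0.0125) were called for *Chd4-ECko*.

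**Figure D5:**
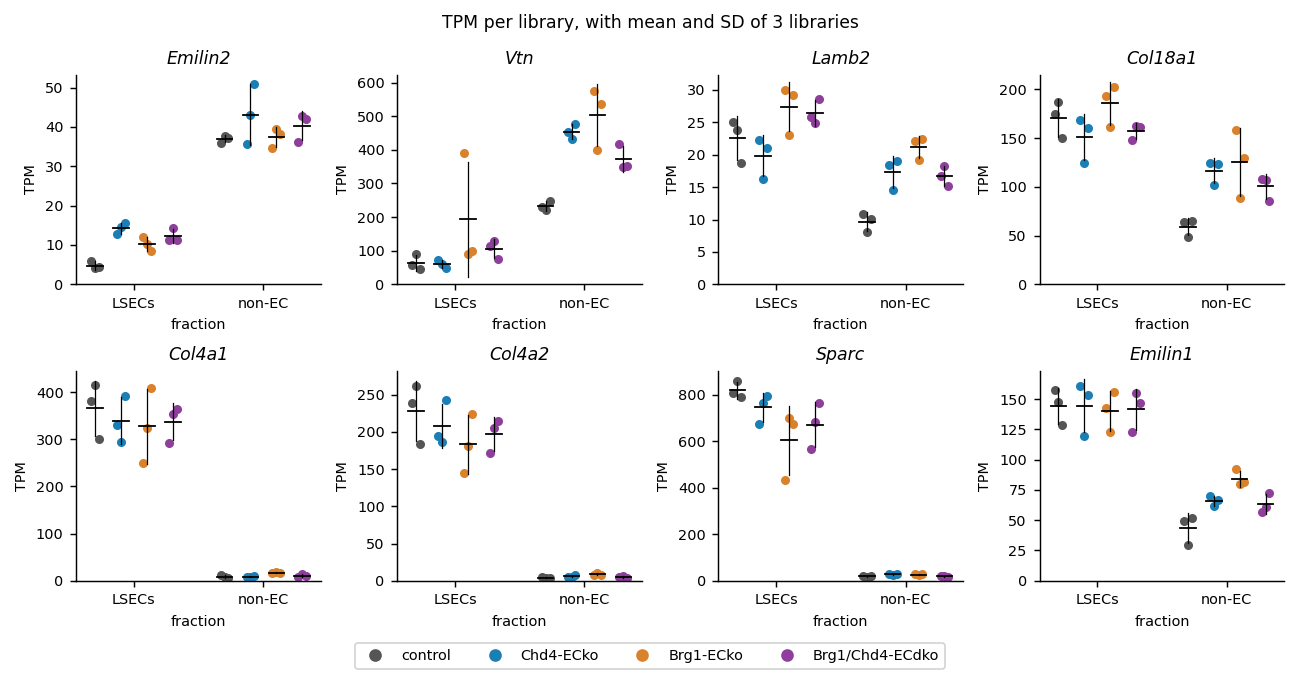
TPM of 8 members in every library (points, y axis from 0), by fraction on the x axis and genotype in color, with the mean (line) and SD (bar) of 3 libraries. *Emilin2* is higher in each mutant LSEC group than in control with non-EC means of 36.9 to 43.1 TPM, and *Vtn*, *Lamb2* and *Col18a1* are higher in each mutant non-EC group.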

How the data were processed

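RNA-Seq values of 24 libraries were used, 3 for each of 4 genotypes in LSECs and in non-EC cells. RNA was selected for poly-A per the labels. Per the study's methods, it was sequenced as read pairs, and reads were trimmed of repeated guanines and mapped to GRCm39 (mm39) in CLC Genomics Workbench. The authors deposited TPM, which sum to the same total in each library and keep no read depth, so that the precision behind a value is known only from the spread between replicates.

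Members were the listed names that reached 1 TPM in 3 or more libraries. The members, pathway lists and marker lists were chosen with earlier results of these data known. Genes that reached 1 TPM in 3 or more of the libraries fitted were tested with limma 3.58.1 (R 4.3.3) on log2(TPM + 1), with a trend in the prior variance. A fold change on this scale understates the change of low genes. LSEC minus non-EC differences and their changes between genotypes came from 1 model of all 24 libraries (13775 genes), and genotype differences from the 12 LSEC (13444 genes) or 12 non-EC libraries (12223 genes). P-values were adjusted over all genes tested (Benjamini-Hochberg), and a gene was called at an adjusted p under 0.05 with a log2 fold change above 1 in size. Exact permutation tests were two-sided. Named genes were the members with the highest control level in each fraction, the largest and smallest called fraction difference in a role group, the 3 smallest p-values of a genotype comparison with fewer than 3 calls, and every member called between genotypes.

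Libraries with the same replicate number and genotype deviated together between LSECs and non-EC cells in 12 of 12 pairs (correlations of 0.124 to 0.411), and were taken as pairs in an alternative fit. Other alternatives changed the pseudocount, the filter on low values, the normalization, the prior trend and the libraries used. Simulated data had 200 genes changed by 2 on the log2 scale, up or down. Of changed genes above 3 TPM, 164 of 167 were recovered for *Chd4-ECko* LSECs and 163 of 166 for the control fractions. There, 11 and 2 unchanged genes were called. Smaller changes were not simulated, so that recovery near the fold threshold or below it is not known. Promoter windows came from RefSeq for GRCm38.p6. Gene positions came from the GENCODE annotation of GRCm39, matched to the deposited values by Ensembl identifier. Figures and sums used Python 3.11.15. The values of 1 member are not reported here.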

Additional observations from a re-analysis of the deposited data

Results flagged for a closer look

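Effects of a genotype that differed between the fractions, by the test of that difference at an adjusted p under 0.05, were found for 6 members in 7 instances. For *Brg1-ECko* these were *Col4a2* (-1.22, LSEC effect minus non-EC effect on the log2 scale), *Emilin1* (-1.02), *Emilin2* (0.96) and *Sparc* (-0.95). For *Chd4-ECko* they were *Col18a1* (-1.15), *Emilin2* (1.21) and *Lamb2* (-0.96). *Emilin2* was the 1 gene of these with a positive value, and the other 5 were higher in mutant non-EC cells. Each of the 7 had an adjusted p of 0.05 or more under at least 1 alternative, at most 0.106, 0.112, 0.102 and 0.11 for *Brg1-ECko* and 0.0833, 0.0509 and 0.106 for *Chd4-ECko*, in the order above. Both genotypes share the control libraries. The hepatoblast marker sum of the non-EC libraries and their stellate and mesenchymal marker sum each differed between control and mutant without overlap. The part of these cell types in the values was not tested.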

How the results depend on the processing

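None of the results run under the alternatives reversed its direction. They were the counts of members and the log2 fold changes of 43 gene and comparison pairs, not every value named above. Members higher in control LSECs numbered 32 (of 35 tested with a mean of at least 5 TPM, beside 15.9% of all genes) to 50 over the alternatives and 44 to 48 with 1 library left out, and lower ones 2 to 2. In the mutants a mean of at least 5 TPM left 29, 28 and 28 members higher in LSECs (*Brg1/Chd4-ECdko*, *Chd4-ECko* and *Brg1-ECko*), each of 35 tested and beside 15.4%, 17.7% and 15% of all genes, and leaving out libraries gave 46 to 46, 39 to 45 and 41 to 45. In LSECs the counts of 1, 0, 1 and 0 members (against control, and *Brg1/Chd4-ECdko* against *Chd4-ECko*) stayed at 1 to 1, 0 to 0, 1 to 1 and 0 to 0 with libraries left out.

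In *Chd4-ECko* non-EC cells 0 members were called, but 7 with no fold change threshold, 1 after quantile normalization, 2 (*Col1a1* and *Col1a2*) with the replicate block, and 0 to 2 with libraries left out. In *Brg1-ECko* non-EC cells 3 became 11 with no fold change threshold, 6 with a pseudocount of 0.1 TPM and 1 to 8 with libraries left out (7 without control replicate 1, 1 without control replicate 2, 1 without *Brg1-ECko* replicate 1 and 8 without its replicate 2). In *Brg1/Chd4-ECdko* non-EC cells 0 became 2 with no fold change threshold and stayed 0 to 0. Of effects that differed between the fractions, 2 for *Chd4-ECko* became 0 to 3 with libraries left out. For *Brg1-ECko* 2 became 4 with no fold change threshold, 0 with no filter on low values, 1 without the trend, 1 with the replicate block by genotype, 0 in the compared groups alone and 0 to 5 with libraries left out. For *Brg1/Chd4-ECdko* 0 became 1 with a pseudocount of 0.1 TPM, 1 without mitochondrial genes, 1 in the compared groups alone (*Emilin2* each time), and 0 to 1. The causes were not tested. Of the values of single genes, 353 kept their side of the threshold under other alternatives, 2 gained and 8 lost a call, and with libraries left out 256 kept it, 12 gained and 32 lost it.

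Within a fraction, libraries of the same number but different genotype were not taken as pairs, because the labels do not say what the number marks and no more than 13 of 18 pairs in LSECs and 9 of 18 in non-EC cells had a correlation of deviations over 0.1 (means of 0.167 and 0.12). The replicate block over these numbers moved counts only in *Chd4-ECko* non-EC cells, as given above.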
